A study of Homo sapiens with 12 samples.

Results

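Of the 22102 H3K4me3 peaks that vehicle replicate 1 held on chromosomes 1 to 22, 1101 (4.98%) were broad and free of H3K27me3 in MKL-1 cells. MKL-1, a permanent line from a Merkel cell carcinoma, harbours the Merkel cell polyomavirus. A peak was taken when it was at least 4000 bp wide, overlapped a peak of at least 4000 bp in vehicle replicate 2, and touched no H3K27me3 peak of either vehicle library. These are called the broad peaks below. They made up 16.2% of the bases under all peaks of that library, 6462 kb in sum. The broad peaks were chosen by their widths in the vehicle libraries and by the absence of vehicle H3K27me3, and both are given as a description without a test.

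The peak lists came from CUT&RUN, where a nuclease tethered to a chromatin-bound antibody releases the DNA nearby. The treated cells had 3 µM EPZ011989 in 1% ethanol for 6 days, a compound that blocks the methyltransferase EZH2. The vehicle cells had 1% ethanol alone for the same time, and both were split and given fresh medium on day 3. Each treatment was done in duplicate on this 1 line, and every culture was divided between antibodies to H3K4me3, to H3K27me3 and control IgG, which gave 12 libraries. Replicate spread therefore covers repeated treatment and library making in 1 line. No RNA was measured, so whether a gene at a broad peak was transcribed is not known here.

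H3K4me3 is laid down at gene starts by SET1 and MLL family methyltransferases and accompanies transcription initiation, while H3K27me3 is written by Polycomb repressive complex 2, whose catalytic subunit is EZH2. Most H3K4me3 peaks sit tightly around a gene start. A minority stretch well into the gene body, and such broad domains are known for marking genes of cell identity and tumour suppressor genes. Merkel cells are touch receptor cells of the epidermis with neuroendocrine features, specified by ATOH1.

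The promoters of 4 genes at broad peaks are printed to show how different the DNA under them was. ISL1, POU4F3 and ATOH1 encode transcription factors of sensory and neuroendocrine cells, and KRT20 encodes the keratin used to diagnose Merkel cell carcinoma. Each line runs 5′ to 3′ over 300 bases on the gene's strand, from 250 before to 50 after the start, as RefSeq gives it for GRCh38.p14. Capitals mark CpG dinucleotides. The windows are chr5:51383198-51383497 on the plus strand for ISL1, chr5:146338589-146338888 on the plus strand for POU4F3, chr4:93828503-93828802 on the plus strand for ATOH1 and chr17:40885193-40885492 on the minus strand for KRT20.
ISL1 promoter: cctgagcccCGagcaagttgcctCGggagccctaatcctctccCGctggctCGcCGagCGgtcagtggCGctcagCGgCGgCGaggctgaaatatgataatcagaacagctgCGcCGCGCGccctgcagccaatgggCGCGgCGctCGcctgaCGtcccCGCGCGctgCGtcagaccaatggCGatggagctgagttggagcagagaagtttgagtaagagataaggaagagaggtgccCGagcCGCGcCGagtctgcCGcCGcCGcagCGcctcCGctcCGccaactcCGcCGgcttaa
POU4F3 promoter: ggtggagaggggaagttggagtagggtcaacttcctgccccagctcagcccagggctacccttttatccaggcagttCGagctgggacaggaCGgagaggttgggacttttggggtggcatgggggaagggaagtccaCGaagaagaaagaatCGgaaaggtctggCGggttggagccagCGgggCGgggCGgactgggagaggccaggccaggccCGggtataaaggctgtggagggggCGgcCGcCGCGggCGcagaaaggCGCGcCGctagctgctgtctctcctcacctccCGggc
ATOH1 promoter: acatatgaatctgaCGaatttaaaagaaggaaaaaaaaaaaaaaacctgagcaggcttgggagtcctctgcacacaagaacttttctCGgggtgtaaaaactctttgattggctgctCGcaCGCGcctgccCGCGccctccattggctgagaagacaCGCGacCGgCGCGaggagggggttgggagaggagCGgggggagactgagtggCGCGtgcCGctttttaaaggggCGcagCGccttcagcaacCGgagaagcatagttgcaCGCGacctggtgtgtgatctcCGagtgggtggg
KRT20 promoter: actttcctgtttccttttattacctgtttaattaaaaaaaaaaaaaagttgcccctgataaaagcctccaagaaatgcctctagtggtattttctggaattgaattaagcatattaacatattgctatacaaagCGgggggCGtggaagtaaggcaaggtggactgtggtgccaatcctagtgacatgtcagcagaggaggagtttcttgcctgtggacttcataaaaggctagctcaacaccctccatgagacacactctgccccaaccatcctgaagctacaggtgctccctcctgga

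The ISL1 window held 36 CpG and the KRT20 window 2, and POU4F3 with 18 and ATOH1 with 22 lay between. G and C made up 66.7% of the ISL1 window, 65.7% of POU4F3, 56.0% of ATOH1 and 44.0% of KRT20. Both a dense CpG island and an AT-rich promoter with hardly any CpG thus lay under a broad peak. Across the 907 promoters of this kind that lay in broad peaks, the median was 29 CpG and 66.3% GC. The 4032 promoters in mid-size peaks, those of 1000 to under 4000 bp in both vehicle libraries with no H3K27me3, had medians of 27 CpG and 65.3% GC. All 15101 promoters of the table had medians of 22 CpG and 62.7% GC. An observed to expected CpG ratio over 0.6 was found in 90.5% of the promoters in broad peaks, 91.1% of those in mid-size peaks and 64.7% of all.

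Short motifs were counted on both strands of the same windows. TATAAA, the core of the TATA box, was present in 8.05% of promoters in broad peaks, 4.46% of those in mid-size peaks and 10.0% of all promoters; POU4F3 is one that holds it. CCAAT was in 38.9%, 34.8% and 35.7% in the same order. GGGCGG, the GC box, was in 72.2%, 72.5% and 57.6%. CAGCTG, an E-box that bHLH factors such as ATOH1 can bind, was in 15.4%, 16.5% and 17.8%, and ATTGTT, a core of SOX sites, in 4.96%, 4.04% and 7.09%. None of these motifs contains another, and a match says only that these letters are in the window.

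The widths in vehicle replicate 1 ran from 4001 to 38140 bp with a median of 5108 bp and quartiles of 4542 and 6268 bp. Of the 1101 broad peaks, 506 were under 5000 bp, 490 from 5000 to under 8000 bp, 75 from 8000 to under 12000 bp and 30 wider still. The distribution thus had a long tail, in which 8 peaks passed 20000 bp. Just above the limit lay PPIA, which encodes cyclophilin A, and the shared start region of FGD6 and VEZT, each with a peak of 4001 bp, and LINC00867 with 4004 bp. Just below it lay RPS21 with 3997 bp and, each 1 bp short of the limit, EPGN and EZH2, the gene of the drug's own target. The merged region at EZH2 had 5002 and 3807 covered bp in the EPZ011989 libraries and 4388 and 5078 in the vehicle libraries.

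Protein-coding genes lay at 893 broad peaks (81.1%), counted where a gene start, or for genes with no start in the reference table either end, fell inside. Another 52 (4.72%) held only the start of a long noncoding RNA. A further 113 (10.3%) overlapped a coding gene away from the start used, and 43 (3.91%) held no such start and overlapped no coding gene. A single start was used for each gene, so a peak described as away from a start can lie at another start of that gene. Mid-size peaks held a coding gene in 72.4% of cases, and the 383 peaks equally broad but touching H3K27me3 in 89.0%. The broad peaks took in 1109 coding genes, 5.80% of the 19126 in the table and 9.79% of the 11324 with any peak in vehicle replicate 1. Of them, 202 were matched by a gene end alone. A long noncoding RNA start was inside 25.6% of broad peaks and 14.8% of mid-size ones. The median length of the coding genes was 35.0 kb at broad peaks, 31.2 kb at mid-size peaks and 24.5 kb over all coding genes.

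Around the gene start the broad peaks were lopsided. Of the 575 that held exactly 1 coding gene start, 500 (87.0%) reached further downstream than upstream, with medians of 3556 bp downstream and 1478 bp upstream in vehicle replicate 1. The mid-size peaks showed the same lean, 87.6% of 3059, with medians of 1566 bp downstream and 749 bp upstream. Greater width was therefore present on both sides of the start.

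The authors' fold, the enrichment that their peak caller gives at a peak, ranked the broad peaks high in the vehicle replicate 1 list. The median broad peak stood at percentile 83.2 of all peaks, and 29.3% were among the top 10% by fold. Mid-size peaks had a median percentile of 71.5 with 15.1% in the top 10%, and broad peaks with H3K27me3 a median of 85.8 with 40.7%. The distance to the nearest vehicle H3K27me3 peak had a median of 67.7 kb for broad peaks and 33.6 kb for mid-size peaks without H3K27me3. Within 5 kb of such a peak lay 7.36% of broad peaks and 18.9% of mid-size ones. In the EPZ011989 libraries 1 broad peak, at SATB1, overlapped one of the 361 H3K27me3 peaks of replicate 1, and 0 overlapped the 22 of replicate 2. None touched an IgG peak in any of the 4 IgG libraries. Chromosome 19 held 12 broad peaks, 0.869% of its peaks, the lowest share of any autosome. Chromosome 4 had the highest, 7.46%.

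The 12 widest were led by a region on chromosome 22, chr22:46052762-46090901 (hg38), around the start of MIRLET7BHG, the host gene of let-7 microRNAs. It covered 37873 and 36529 bp with EPZ011989, against 38140 and 38033 bp in vehicle. SATB1, which encodes a chromatin organiser, followed at chr3:18415152-18448266 with 33166 and 31808 bp with EPZ011989, against 33115 and 33841 bp in vehicle. The third took in HOXA6, HOXA7, HOXA9 and HOXA10, homeobox genes of body-axis patterning, at chr7:27146748-27175178, with 29092 and 28356 bp with EPZ011989 and 28431 and 29021 bp in vehicle. At these 3 regions the EPZ011989 and vehicle values lay close together, and at the MIRLET7BHG region both EPZ011989 values were the lower.

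Among the rest of the 12, 4 lay at or inside genes of transcription factors. A peak inside NFIB, a nuclear factor I gene, had 25876 and 24381 bp with EPZ011989 and 27284 and 27641 bp in vehicle. ISL1 had 25134 and 24011 bp with EPZ011989 and 24771 and 25105 bp in vehicle. ESRRG, an orphan nuclear receptor gene, had 22647 and 18297 bp with EPZ011989 and 22765 and 22875 bp in vehicle. NFIA, a relative of NFIB, had 16096 and 15247 bp with EPZ011989 and 16834 and 17139 bp in vehicle. Only the ISL1 groups overlapped among these 4, and the choice by vehicle width favours lower EPZ011989 values. A peak of 19204 bp in vehicle replicate 1 lay over the body of CDKN2C, which encodes the CDK inhibitor p18, next to a separate broad peak at its start. It had 19312 and 17671 bp with EPZ011989 and 19204 and 19295 bp in vehicle. The remaining 4 of the 12 lay inside the neuronal adhesion gene CADM2, inside CSMD3, or in intervals of chromosomes 1 and 3 with no coding gene. No coding gene start fell inside these 4, nor inside the NFIB peak.

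**Figure D1:**
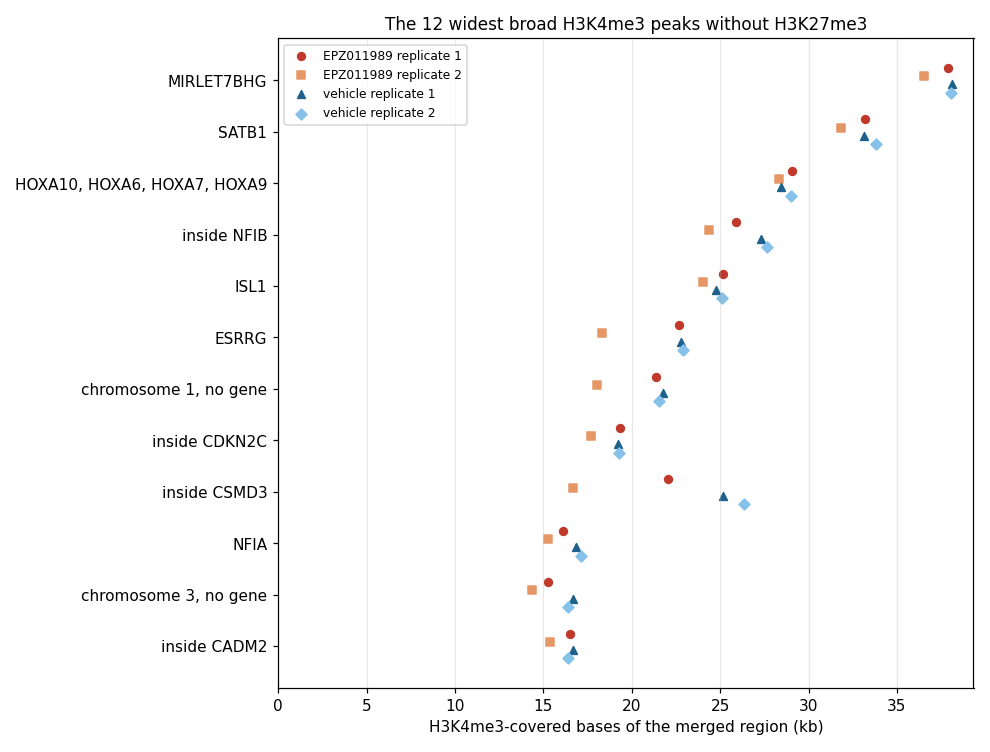
H3K4me3-covered bases in kb (horizontal axis) of the 12 widest broad peaks, 1 row per peak and 1 symbol per library. The widest, at MIRLET7BHG, had 37873 and 36529 bp with EPZ011989 and 38140 and 38033 bp in vehicle, and EPZ011989 replicate 2 is the lowest library in every row.

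Genes of Merkel cell and neuroendocrine identity were set against these peaks through a list of 40 such genes found in the reference table. Of the 40, 15 (37.5%) lay at a broad peak, 2 (LHX3 and GFI1) at a broad peak with H3K27me3, 21 at another H3K4me3 peak and 2 at none. The 21 others had a median peak width of 2658 bp over both vehicle libraries. Widest after ISL1 was POU4F3 at chr5:146335843-146350958, with 14126 and 13579 bp with EPZ011989 and 15116 and 14943 bp in vehicle. INSM1, a neuroendocrine zinc finger factor, had 11346 and 10731 bp with EPZ011989 and 11334 and 11995 bp in vehicle. ATOH1, at chr4:93827085-93835126, had 8230 and 8000 bp with EPZ011989 and 8042 and 8117 bp in vehicle. SOX2, a progenitor factor that acts with ATOH1 and ISL1 in Merkel cells, had 8468 and 7712 bp with EPZ011989 and 8084 and 8586 bp in vehicle. Of these 4, POU4F3 alone had both EPZ011989 values below both vehicle values.

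The other list members at broad peaks covered structure, sensation and secretion. The neurofilament genes NEFM, NEFL and NEFH were all present. NEFM had 7951 and 7307 bp with EPZ011989 and 8782 and 8297 bp in vehicle. KRT20 had 4126 and 3667 bp with EPZ011989 and 4505 and 4650 bp in vehicle. PIEZO2, the touch-sensing ion channel gene of Merkel cells, had 4762 and 4673 bp with EPZ011989 and 4568 and 5373 bp in vehicle. HES6, SRRM4 (a neural splicing regulator), SNAP25 (exocytosis), STMN2 and PCSK2 (prohormone cleavage) completed the 15. With EPZ011989, 13 of the 15 still had a peak of 4000 bp or more in both libraries, and KRT20 and STMN2 did not. Both EPZ011989 values were above both vehicle values at 1, SRRM4, and below at 5, and the median difference was −253.0 bp. The shares were 23.3% above and 17.3% below over all regions, and 9.09% and 33.5% over all broad peaks. The choice by vehicle width favours lower EPZ011989 values, and nothing is read from these counts.

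Markers of other cell types gave the check of the labelled line. Of 24 keratinocyte genes 0 lay at a broad peak and 20 had no vehicle H3K4me3 peak at all. The fibroblast (23 genes), endothelial (18) and melanocyte (12) lists also had 0 at a broad peak. Narrower H3K4me3 peaks in vehicle lay at 4 keratinocyte, 8 fibroblast, 3 endothelial and 3 melanocyte genes. Of 27 lymphoid and myeloid genes 7 had another peak and 1 lay at a broad peak, EBF1, which is expressed in neural tissue as well as in B cells, with 13787 and 12185 bp with EPZ011989 and 13197 and 12847 bp in vehicle. A broad peak chosen for mention after its values were seen spans the joining segments IGHJ1 to IGHJ6 of the immunoglobulin heavy chain locus, chr14:105858712-105866872. It had 6453 and 6115 bp with EPZ011989 and 8161 and 7723 bp in vehicle.

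**Figure D2:**
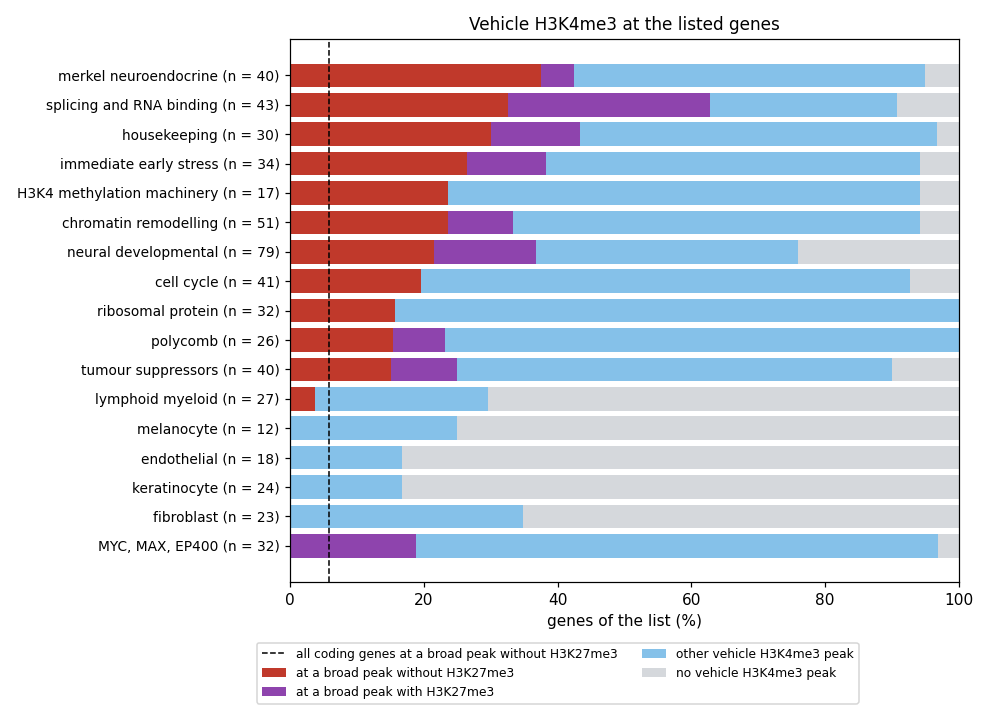
Share of the genes of each list (horizontal axis, %) at a broad peak without H3K27me3, at a broad peak with it, at another vehicle H3K4me3 peak or at none; the dashed line is the 5.80% of all coding genes at a broad peak without H3K27me3. The Merkel and neuroendocrine list reaches 37.5% and the splicing list 32.6%.

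Among 79 neural and developmental genes, 17 (21.5%) lay at a broad peak without H3K27me3 and 12 at one with it. The 17 included all of ID1 to ID4, inhibitors of bHLH factors, along with SOX4, SOX12, ZEB1, ELAVL2, TCF4, LMO4, IRX3 and DPYSL3. The widest were NFIA and DACH1, which had 16599 and 14834 bp with EPZ011989 and 17715 and 18215 bp in vehicle. RUNX1T1, a corepressor gene, had 12650 and 12296 bp with EPZ011989 and 13152 and 13181 bp in vehicle. Both EPZ011989 values were above both vehicle values at 2 of the 17, LMO4 and ZEB1, and below at 4. Over all regions 23.3% were above and 17.3% below, and over all broad peaks 9.09% and 33.5%. Choosing by vehicle width favours lower EPZ011989 values, so nothing is read from these counts. Of the 17, 16 still had a peak of 4000 bp or more in both EPZ011989 libraries.

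Genes of the chromatin machinery were split. Of 26 Polycomb genes, 4 lay at broad peaks. EED, a core subunit of Polycomb repressive complex 2, had 4923 and 4128 bp with EPZ011989 and 4215 and 4521 bp in vehicle. PCGF2, of Polycomb repressive complex 1, lay in a peak shared with PSMB3. That peak had 8511 and 8323 bp with EPZ011989 and 7798 and 7318 bp in vehicle. Both EPZ011989 values were above both vehicle values there, as at 23.3% of all regions. RBBP4, in a peak shared with ZBTB8OS, and JARID2 were the others. The list for H3K4 methylation contributed 4 of 17, the methyltransferase genes KMT2A and KMT2D, PSIP1 and the demethylase gene KDM5A. The KDM5A peak was shared with CCDC77. Of 51 chromatin remodelling genes 12 (23.5%) were present, with 3 of the ARID subunit genes of SWI/SNF among them. ARID1B had 9304 and 8874 bp with EPZ011989 and 9622 and 9508 bp in vehicle.

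Of 32 genes of the MYC, MAX and EP400 network, with which the viral small T antigen is known to act, 0 lay at a broad peak without H3K27me3. MYCL and MYC were among 6 at a broad peak that touched H3K27me3, and 25 had another peak, with a median width of 2960 bp over both vehicle libraries.

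Tumour suppressors gave 6 of 40 (15.0%). CDKN1B, which encodes p27, lay in a peak shared with APOLD1 and GPR19 that had 13987 and 13810 bp with EPZ011989 and 13574 and 14072 bp in vehicle. PTCH1, which encodes the hedgehog receptor, had 8522 and 8685 bp with EPZ011989 and 8489 and 8408 bp in vehicle. SMAD4, CDKN2C and SETD2 were also among the 6, and ATM was at a broad peak with H3K27me3. Of 41 cell cycle genes 8 (19.5%) were present, CDK1, PCNA, MKI67, MCM4, CCNE2, E2F2, E2F3 and LIN54.

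Genes used by most cells were also well represented. Splicing and RNA-binding genes gave 14 of 43 (32.6%), with another 13 at broad peaks with H3K27me3. HNRNPA2B1, which shares its start region with CBX3, was the widest with 13468 and 12022 bp with EPZ011989 and 14530 and 14202 bp in vehicle. TRA2B had 10919 and 9425 bp with EPZ011989 and 11522 and 10796 bp in vehicle. All 14 still had a peak of 4000 bp or more in both EPZ011989 libraries. Housekeeping genes gave 9 of 30 (30.0%), GAPDH, ACTB, TUBB and PPIA among them. Immediate early and stress genes gave 9 of 34 (26.5%), with JUN, JUNB and IER2, and ribosomal protein genes 5 of 32 (15.6%). The lists were drawn up with earlier results on these peaks known, and no test of them was made.

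MicroRNA hairpins lay in 27 broad peaks, 35 of the 1461 hairpins in the RefSeq table. The peak at MIR17HG, chr13:91346627-91351630, held a whole cluster of 6 hairpins of a known oncogenic microRNA family, and was picked for this after its values were seen. Their main mature sequences are printed 5′ to 3′ from RefSeq for GRCh38.p14 with the seed, bases 2 to 8, in capitals.
hsa-miR-17-5p: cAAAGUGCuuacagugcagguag
hsa-miR-20a-5p: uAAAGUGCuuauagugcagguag
hsa-miR-18a-5p: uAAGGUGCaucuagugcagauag
hsa-miR-19a-3p: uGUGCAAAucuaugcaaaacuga
hsa-miR-19b-3p: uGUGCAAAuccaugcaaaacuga
hsa-miR-92a-3p: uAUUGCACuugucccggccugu

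By seed the 6 fell into 4 groups, since miR-17-5p and miR-20a-5p share AAAGUGC and miR-19a-3p and miR-19b-3p share GUGCAAA. The MIR17HG region had 5619 and 4567 bp with EPZ011989 and 5004 and 5743 bp in vehicle, so the groups overlapped. Other hairpins in broad peaks included those of let-7i, miR-148a, and miR-196b in the HOXA region.

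Before the comparison of treatments, the libraries differed over the whole list. The EPZ011989 libraries had 22522 and 20532 H3K4me3 peaks on the autosomes, of which 2235 and 1444 were at least 4000 bp wide. The vehicle libraries had 22102 and 23193, of which 1707 and 1774 were that wide. The median peak width was 1681 and 1604 bp in the EPZ011989 lists and 1441.5 and 1334 bp in the vehicle lists. EPZ011989 replicate 2 thus had the fewest peaks and the fewest of 4000 bp or more, while its median peak was wider than in either vehicle list. The median over all 20762 regions with a peak in at least 2 libraries was 1865 and 1578 covered bp in the EPZ011989 libraries and 1585 and 1610 in the vehicle libraries, so on this measure EPZ011989 replicate 1 was the library apart from the other 3. Read depth is not known, and its part in these widths was not tested.

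No broad peak was lost with EPZ011989. Every one of the 1100 merged regions that hold them kept a peak in both EPZ011989 libraries. Of these, 1039 (94.5%) still had a peak of 4000 bp or more in EPZ011989 replicate 1, 845 (76.8%) in replicate 2, 834 (75.8%) in both and 50 in neither. Of the 105 that were 8000 bp or wider in vehicle replicate 1, 102 had such a peak in both, and so did 30 of 30 that were 12000 bp or wider. A wider peak has further to fall to reach 4000 bp, so these counts do not compare with the share over all 1100. Coverage was under 50% of the vehicle mean at 1 region in replicate 1 and at 2 in replicate 2. In EPZ011989 replicate 1, 844 regions lay within 10% of the vehicle mean, and in replicate 2, 594.

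**Figure D3:**
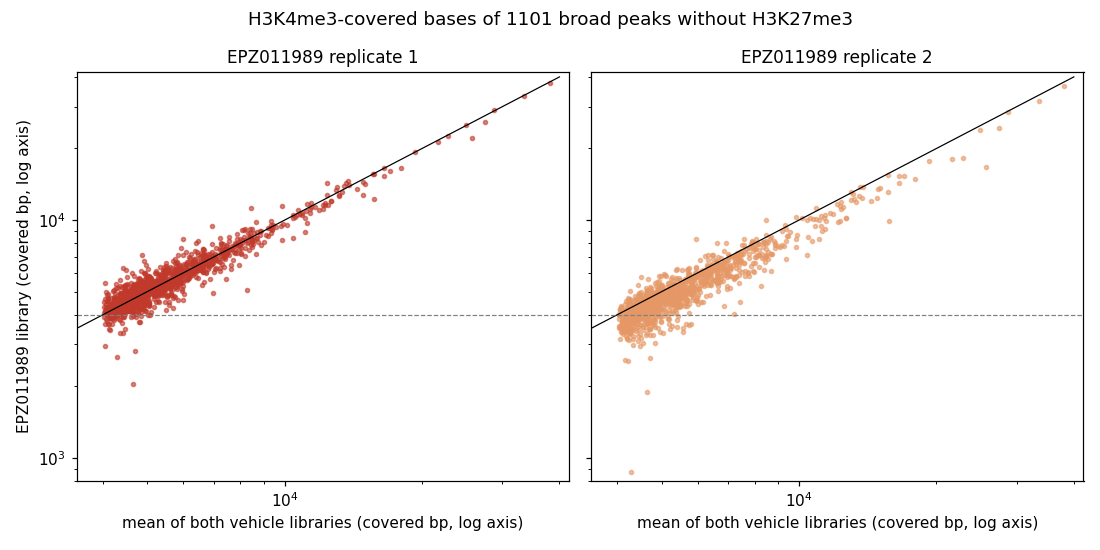
Covered bases of each broad peak in 1 EPZ011989 library (vertical axis, bp, log scale) against the mean of both vehicle libraries (horizontal axis, bp, log scale); the solid line marks equal values and the dashed line 4000 bp. In replicate 1 the points straddle the solid line, with a median of 99.6% of vehicle, and in replicate 2 most lie below it, with a median of 91.5%.

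The median width of the 1100 regions was 5260 and 4793.5 bp in the EPZ011989 libraries and 5204 and 5188 bp in the vehicle libraries. The vehicle libraries and EPZ011989 replicate 1 were close, and EPZ011989 replicate 2 was lower. Per region, the median difference of EPZ011989 minus vehicle was −228.5 bp (−4.25%), −22.75 bp when EPZ011989 replicate 2 was left out and −457.8 bp when replicate 1 was, so its size rested on which treated library was used. Both EPZ011989 values were above both vehicle values at 100 regions (9.09%), against 23.3% of all 20762 regions, and below at 368 (33.5%), against 17.3% of all. Because the regions were chosen as wide in vehicle, a lean to smaller EPZ011989 values comes in with the choice, and nothing is read from these shares.

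The same measure was also taken on other sets. The equally broad regions with H3K27me3 and the mid-size regions were again chosen by vehicle width, so that choice enters their values too. The 914 regions with peaks of 4000 bp or more in both EPZ011989 libraries and no vehicle H3K27me3 had a median difference of −123.5 bp, with both EPZ011989 values above at 15.4% and below at 27.5%. The 1255 regions whose mean over all 4 libraries was at least 4000 bp and that had no vehicle H3K27me3 had −156.5 bp, with 11.4% above and 27.9% below. The 382 regions equally broad in vehicle but with H3K27me3 had −70.5 bp, with 17.0% above and 21.99% below, and mid-size regions without H3K27me3 −31.0 bp, with 15.1% above and 19.2% below. The median was below 0 in each of these sets and 23.5 bp over all regions. The treated libraries differed in direction in these 4 sets. EPZ011989 replicate 1 had medians of 100.8%, 101.0%, 102.3% and 104.5% of the vehicle mean in the order given, and replicate 2 had 94.8%, 92.4%, 94.3% and 92.1%.

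**Figure D4:**
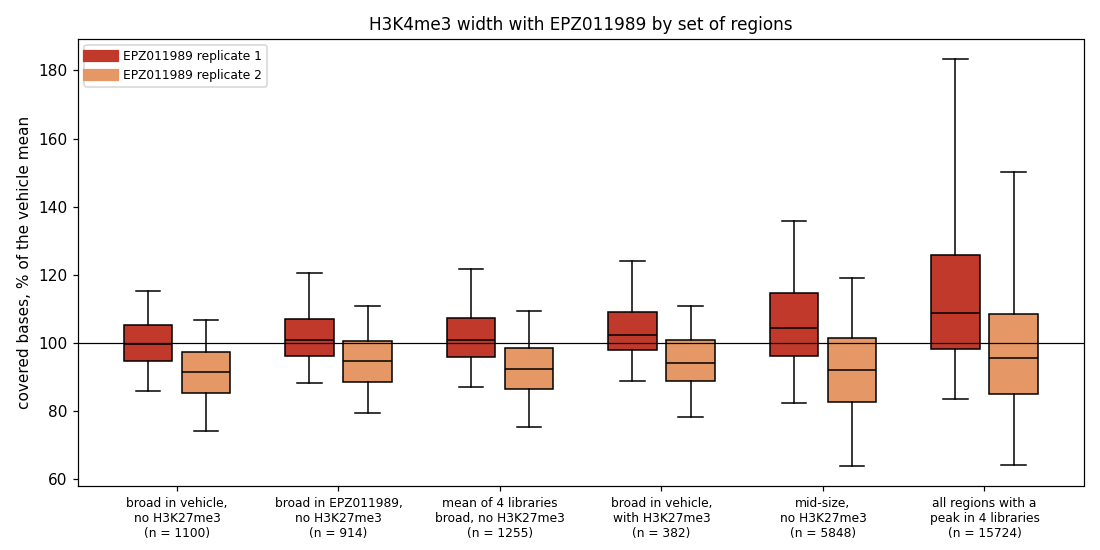
Covered bases in each EPZ011989 library as a percentage of the vehicle mean (vertical axis), by set of regions; boxes span the quartiles with the median as a line and whiskers reach from percentile 5 to percentile 95. For the broad peaks the medians are 99.6% in EPZ011989 replicate 1 and 91.5% in replicate 2, and replicate 2 is the lower library in every set.

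Library by library, EPZ011989 replicate 1 differed from vehicle replicates 1 and 2 by medians of 9.5 and −15.5 bp at the broad peaks, and EPZ011989 replicate 2 by −445.5 and −467.0 bp. Over all regions these medians were 190.0 and 156.0 bp for replicate 1 and −93.0 and −130.5 bp for replicate 2. By width in vehicle replicate 1, which is also part of the difference, the median was −179.5 bp (−3.90%) for broad peaks of 4000 to under 5000 bp, −242.25 bp (−4.13%) for 5000 to under 8000 bp and −764.0 bp (−6.22%) for wider ones, and no trend is read from these classes. In the widest class both EPZ011989 values were below vehicle at 55 of 105, against 17.3% of all regions. They were above at 3, against 23.3% of all regions. This class was chosen for large vehicle width, which favours lower EPZ011989 values, and nothing is read from these counts. Regions at coding genes had a median of −212.0 bp and the 208 without one −317.5 bp. At the 575 peaks with 1 gene start, the downstream reach had medians of 3597 and 3228 bp in the EPZ011989 libraries and 3556 and 3647 bp in the vehicle libraries. The upstream reach had medians of 1565 and 1345 bp in the EPZ011989 libraries and 1478 and 1503 bp in the vehicle libraries.

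Tested one by one with limma over all 20762 regions, no region was called wider or narrower at an adjusted p under 0.05, so 0% of regions and 0 broad peaks were called in either direction. The smallest adjusted p was 0.105 over all regions and 0.152 among the broad peaks. At an unadjusted limma p under 0.05, 8 of the 1100 regions with broad peaks were wider, against 7.8% of all regions. Narrower were 80 of the 1100, against 3.39% of all. With 2 libraries a group, an exact permutation test of a single region cannot go below p = 0.33. Quantile normalization gives every library the same distribution of widths. After it, limma called 1 of the 1100 wider, against 0.934% of all regions, and 8 narrower, against 0.183% of all. The choice of the broad peaks as wide in vehicle favours narrower calls in both counts, and nothing is read from them.

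Of all 1101 broad peaks, 208 held no matched coding gene start or end. This was so for 6 of the 8 largest decreases among broad peaks whose groups did not overlap. The largest, inside CSMD3 at chr8:112954296-112978009, had 22050 and 16698 bp with EPZ011989 and 25153 and 26334 bp in vehicle (difference −6369.5 bp, SE 1824). Leaving out EPZ011989 replicate 2 gave −3694 bp at CSMD3, and leaving out replicate 1 gave −9046 bp. An interval on chromosome 7, chr7:81681903-81696468, 73.6 kb from HGF, had 12227 and 9931 bp with EPZ011989 and 15838 and 15606 bp in vehicle. An interval with no gene at chr6:76451506-76459765 had 5075 and 5267 bp with EPZ011989 and 8260 and 8249 bp in vehicle (difference −3083.5 bp, SE 313.5, limma adjusted p = 0.152). Each EPZ011989 library lay below both vehicle libraries in these 3 regions, which was fixed by choosing peaks whose groups did not overlap.

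Inside GALNTL6, a glycosyltransferase gene, 2044 and 1895 bp were covered with EPZ011989 and 4831 and 4461 bp in vehicle (difference −2676.5 bp, SE 245.1, limma adjusted p = 0.152). Inside CADM2, a second peak at chr3:84965063-84969549 had 2663 and 872 bp with EPZ011989 and 4487 and 4075 bp in vehicle. The region at chr3:182388279-182398330, beside one of the 12 widest, had 8428 and 7135 bp with EPZ011989 and 10484 and 10333 bp in vehicle. The 2 with a gene start were GNAO1 and LIN28B. GNAO1, a G protein subunit gene of neurons, had 8892 and 8351 bp with EPZ011989 and 11024 and 11094 bp in vehicle. LIN28B, whose RNA-binding product blocks let-7 processing, had 5639 and 4543 bp with EPZ011989 and 7381 and 7499 bp in vehicle. By the authors' fold these 8 ranked at a median percentile of 56.3 of the vehicle replicate 1 list. The median percentile was 71.2 for the 8 largest increases and 83.2 for all broad peaks. All 8 decreases except the CSMD3 peak were called narrower after quantile normalization. GOT2, a mitochondrial aminotransferase gene, was also called narrower, with 2807 and 2631 bp with EPZ011989 and 4689 and 4718 bp in vehicle.

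Of the 8 largest increases, 7 lay at a coding gene, KCNH7 and EXT1 being matched by a gene end and the others by a start. The first lay inside ELAVL4, a neuronal RNA-binding protein gene, at chr1:50107247-50113351. It had 11255 and 9983 bp with EPZ011989 and 8167 and 8718 bp in vehicle (difference 2176.5 bp, SE 569.7) and was the broad peak called wider after quantile normalization. KCNH7, a potassium channel gene, had 7631 and 8341 bp with EPZ011989 and 6103 and 5759 bp in vehicle (difference 2055 bp, SE 396.3, limma adjusted p = 0.251). WNT10A, a WNT ligand gene, had 9456 and 8042 bp with EPZ011989 and 7255 and 6595 bp in vehicle. Both EPZ011989 libraries were above both vehicle libraries at all 3, which was again fixed by choosing peaks whose groups did not overlap. At KCNH7 EPZ011989 replicate 2 was the higher of the treated libraries.

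JAG2, a Notch ligand gene, had 6284 and 5313 bp with EPZ011989 and 4325 and 4542 bp in vehicle. EXT1, which encodes a heparan sulfate polymerase, had 5770 and 5741 bp with EPZ011989 and 4441 and 4569 bp in vehicle. SLC12A2, a chloride cotransporter gene, had 6452 and 5841 bp with EPZ011989 and 4972 and 4982 bp in vehicle. KLF16 and the potassium channel gene KCNC4 completed the 8. At KLF16 the EPZ011989 libraries had 7141 and 5488 bp and the vehicle libraries 5373 and 4381 bp. None of these increases passed the adjusted threshold as deposited.

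**Figure D5:**
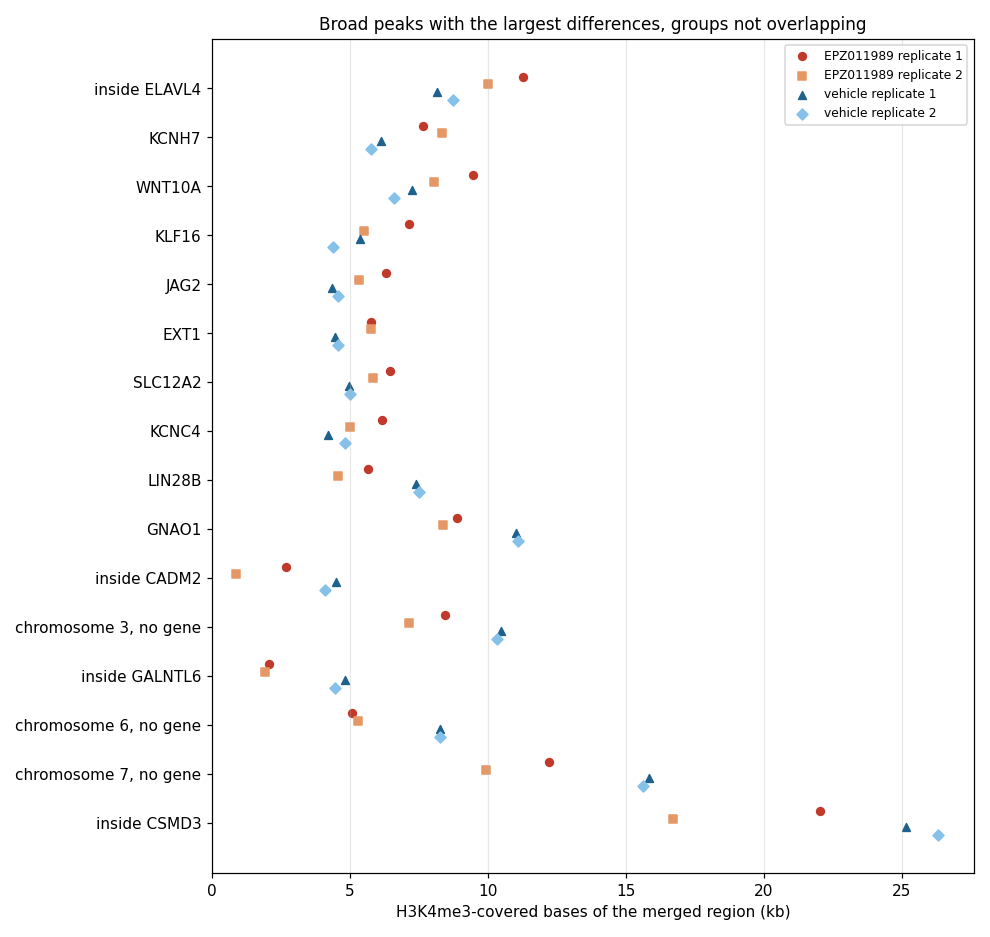
H3K4me3-covered bases in kb (horizontal axis) of the 8 largest increases (upper rows) and the 8 largest decreases (lower rows) among broad peaks whose groups did not overlap, 1 symbol per library. Inside ELAVL4 the EPZ011989 libraries had 11255 and 9983 bp and the vehicle libraries 8167 and 8718 bp; inside GALNTL6 the EPZ011989 libraries had 2044 and 1895 bp and the vehicle libraries 4831 and 4461 bp.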

How the data were processed

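CUT&RUN libraries of MKL-1 cells were used, 2 for each combination of 3 antibodies with EPZ011989 or vehicle. The authors deposited 1 peak list per library on hg38. The submitters' processing notes name MACS2 2.1.1.20160309, Bowtie2 2.2.9, SAMtools 0.1.19 and FastQC; thresholds and control are not given in the sources used here. Every deposited peak has a fold (a ratio of signal to local background), a −log10 p and −log10 q, and a score derived from them. The lists hold no read counts, so depth is unknown and no scaling was made. Peak widths were taken as deposited. Folds were used only as ranks within 1 list. A list's width depends on depth and on the calling threshold.

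Peaks of the 4 H3K4me3 libraries on chromosomes 1 to 22 that overlapped or touched were merged, and the bases covered by each library's peaks in each merged region were counted. The 1101 broad peaks fell in 1100 regions. Covered bases were compared with limma 3.58.1 (trend and robust, R 4.3.3) over the 20762 regions with a peak in at least 2 libraries, with Benjamini-Hochberg adjustment at 0.05. Python 3.11.15, numpy 2.4.6, pandas 2.3.3 and matplotlib 3.10.9 were used.

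Gene positions, promoters and microRNAs came from RefSeq tables of GRCh38.p14. Starts were given for 15101 of 19126 autosomal coding genes, and the other 4025 were matched by either gene end. Named were the 12 widest peaks, those at genes of 4 lists and up to 4 of each other list, the 8 largest increases and decreases without overlap, and the 3 peaks on each side of the limit. Some genes and 1 list are not reported here. The broad peaks and the gene lists were chosen with earlier results of these data known. Alternatives were leaving out each library, a replicate block, quantile normalization, a log2 scale, other filters, a stricter q, wider merging, other width limits, overlaps and gene windows, and 2 other choices of regions.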

Additional observations from a re-analysis of the deposited data

How the results depend on the processing

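The median difference of the broad peaks stayed below 0 under every setting tried. It ran from −457.8 bp (EPZ011989 replicate 1 left out) to −22.75 bp (EPZ011989 replicate 2 left out). It was −230.8 bp without vehicle replicate 1 and −221.8 bp without vehicle replicate 2. Apart from the other choices of regions, these settings keep peaks chosen as wide in vehicle, which favours a value below 0. Nothing is read from the shared sign. EPZ011989 replicate 1 alone gave medians of 9.5 bp against vehicle replicate 1 and −15.5 bp against vehicle replicate 2. Regions whose EPZ011989 values were both lower numbered 368, and those both higher 100. With 1 library left out, regions whose remaining groups did not overlap numbered 402 to 823 lower and 126 to 398 higher. The highest counts came without EPZ011989 replicate 1 for lower and without replicate 2 for higher. Fewer values must then be separated, so these counts can only rise, and nothing is read from the rise. With a width limit of 3000 bp there were 2406 broad peaks, of which 1993 kept that width in both EPZ011989 libraries, and with 5000 bp 516 and 379, against 1101 and 834 at 4000 bp.

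Limma called 0 regions as deposited. With no filter on libraries it called 464 wider and 102 narrower (2 and 15 broad peaks). With a peak in all 4 libraries it called 57 and 9 (0 and 3 broad peaks), and after quantile normalization 194 and 38 (1 and 8 broad peaks). With peaks within 1000 bp merged it called 2 and 1, and with −log10 q of at least 5, 0 and 1. The number of regions tested changes with the filter, the merging and the q limit, so these counts are not shares. Among broad peaks the choice by vehicle width favours narrower calls, and nothing is read from their counts. Quantile normalization moved the median difference over all regions to −31.28 bp, against 23.5 bp before. The cause of these changes was not tested. The replicate numbers did not pair the libraries (correlation of deviations −0.03), and with a replicate block 0 regions and 0 broad peaks were called. Listed genes at broad peaks numbered 104, and 83 with known starts only, an alternative chosen after seeing the data. Of the other 112 values at single regions, 105 moved by less than the spread between replicates. For values with 1 library left out this outcome was fixed, since the move is set by that pair's own spread. The 7 that moved further came from the stricter q, wider merging or quantile normalization. Read depth is unknown, and its part in the widths of any library was not tested.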
